A study of Mus musculus with 9 samples.

Results

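Regulators of mitotic entry, of the spindle checkpoint and of cytokinesis were followed in the livers of 3 mouse genotypes. The set holds 38 genes chosen by symbol, and each was read through the probe set that the platform annotation gives to that gene alone, the brightest over all 9 arrays where there were several. Of the 38, 37 were measured among the 28939 probe sets tested. The exception is Ccnb1, a mitotic cyclin for which no annotated probe set was found, and which has no values below.

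The samples are whole livers of male C57/BL6 mice aged 8 to 9 weeks on standard chow, hybridised to 9 single-channel Affymetrix arrays, with 3 arrays per group. The first group is wild type. The second, here the NEMO knockout, is labelled as lacking NEMO in hepatocytes (NEMOΔhepa). NEMO (gene Ikbkg) is the scaffold that IκB kinases need to switch on NF-κB signalling. The third comes from crossing NEMOΔhepa mice with mice that lack p21 (Cdkn1a, an inhibitor of cyclin-dependent kinases) in all cells, and is called the labelled double knockout because its Cdkn1a signal was not lower. Hepatocyte NEMO loss is therefore common to both knockout groups, and no group lacks p21 alone. By the label the other cells of the liver keep NEMO, which was not tested. The promoter that drives the hepatocyte deletion is not given in the sources used here. The labels set the animals apart only by identifiers, so p-values measure the spread between these samples. The comparisons ask how mitotic gene expression differs after hepatocyte NEMO loss, and how it differs further with p21 loss on top.

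Mitosis is started by CDK1 bound to cyclin A or B, is held at metaphase by the spindle checkpoint until every kinetochore is attached, and is ended by the anaphase-promoting complex (APC/C), a ubiquitin ligase that marks cyclins for destruction. Most of the genes involved are silent in resting cells, where the DREAM repressor complex sits on their promoters at a short element called the cell cycle genes homology region (CHR), and are switched on in dividing cells by the B-MYB and FOXM1 activators and by NF-Y at CCAAT boxes. Adult hepatocytes rarely divide, and p21 is known to keep DREAM active by inhibiting cyclin-dependent kinases.

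Promoter sequences are shown to describe where CHR and CCAAT matches lie in the listed genes. RefSeq promoter windows (build GRCm38.p6, 300 bases, of which 250 lie before the transcription start and 50 after it) were at hand for 31 of the 38 genes, in 34 windows. The windows shown belong to the gene with the largest difference between NEMO knockout and wild type in each functional class, where a window was at hand, and to Ccnf, which had the smallest difference of all. Each run covers 150 bases before the start and 30 after it, 5′ to 3′ on the gene's strand, and capitals mark CHR and CCAAT matches on either strand. They lie at chr9:70421525-70421704, minus strand (Ccnb2), chr7:122159285-122159464, plus strand (Plk1), chr6:66535071-66535250, plus strand (Mad2l1), chr2:69206184-69206363, minus strand (Spc25), chr7:135716350-135716529, minus strand (Mki67), chr3:27153849-27154028, minus strand (Ect2, the first of its 2 listed starts) and chr17:24251380-24251559, minus strand (Ccnf).
Ccnb2: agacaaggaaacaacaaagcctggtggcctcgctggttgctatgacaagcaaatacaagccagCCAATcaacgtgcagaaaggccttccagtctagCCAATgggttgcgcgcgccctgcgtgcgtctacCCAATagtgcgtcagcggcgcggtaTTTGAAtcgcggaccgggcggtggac
Plk1: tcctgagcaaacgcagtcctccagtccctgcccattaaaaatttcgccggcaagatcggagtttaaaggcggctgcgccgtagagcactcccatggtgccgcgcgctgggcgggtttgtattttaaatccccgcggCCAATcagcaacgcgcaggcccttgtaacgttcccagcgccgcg
Mad2l1: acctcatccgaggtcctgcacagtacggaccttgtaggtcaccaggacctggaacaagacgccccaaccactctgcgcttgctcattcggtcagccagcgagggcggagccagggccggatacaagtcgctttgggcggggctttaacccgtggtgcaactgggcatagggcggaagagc
Spc25: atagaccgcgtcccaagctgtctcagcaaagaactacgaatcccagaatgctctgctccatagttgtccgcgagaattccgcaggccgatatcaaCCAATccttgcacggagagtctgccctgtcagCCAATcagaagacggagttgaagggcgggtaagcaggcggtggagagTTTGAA
Mki67: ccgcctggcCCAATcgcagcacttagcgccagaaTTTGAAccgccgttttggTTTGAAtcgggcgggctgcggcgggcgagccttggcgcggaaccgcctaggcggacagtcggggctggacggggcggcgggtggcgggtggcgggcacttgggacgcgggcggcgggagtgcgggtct
Ect2: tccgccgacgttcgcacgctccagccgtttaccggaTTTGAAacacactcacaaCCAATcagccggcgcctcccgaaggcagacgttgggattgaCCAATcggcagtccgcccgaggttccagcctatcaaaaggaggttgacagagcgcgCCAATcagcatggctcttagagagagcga
Ccnf: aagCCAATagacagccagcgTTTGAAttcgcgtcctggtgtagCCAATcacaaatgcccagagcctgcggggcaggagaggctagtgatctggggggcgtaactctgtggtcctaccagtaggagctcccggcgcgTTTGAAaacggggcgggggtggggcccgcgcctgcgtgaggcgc

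The CHR was searched as TTTGAA or TTCGAA and the CCAAT box as CCAAT, both on either strand. A CHR match was in 25 of the 34 member windows (73.5%) and in 19.2% of all 32851 promoter windows of that length. A CCAAT match was in 24 (70.6%) and in 37.4% of all windows, and both kinds were in 21 (61.8%) against 7.52%. The member windows were also richer in G and C (median 59% against 52.7%), and the GC box GGGCGG, searched the same way, was in 28 of them (82.4%) against 35.7%. An E2F site (TTTGGCGC, TTTCCCGC, TTTGCCGC or TTTCGCGC) was in 1, that of Cdk1, or 2.94% against 2.26%. TTCGAA reads the same on both strands, and matches were not required to be free of overlap with each other.

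In the stretches shown, Ccnb2 carries 3 CCAAT matches followed by a CHR that starts 5 bases after the transcription start. Plk1 has its CHR match at base 31, just past the printed stretch. Mad2l1 has neither motif in its window and had one of the largest differences. Ccnf has 2 of each and the smallest difference between NEMO knockout and wild type. Among measured genes with a window, the 22 with a CHR match had a median difference of 1.004 (log2) between NEMO knockout and wild type and the 8 without one had 0.49. A match is a description of letters and not a test of binding, and its part in the differences was not tested.

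**Figure D1:**
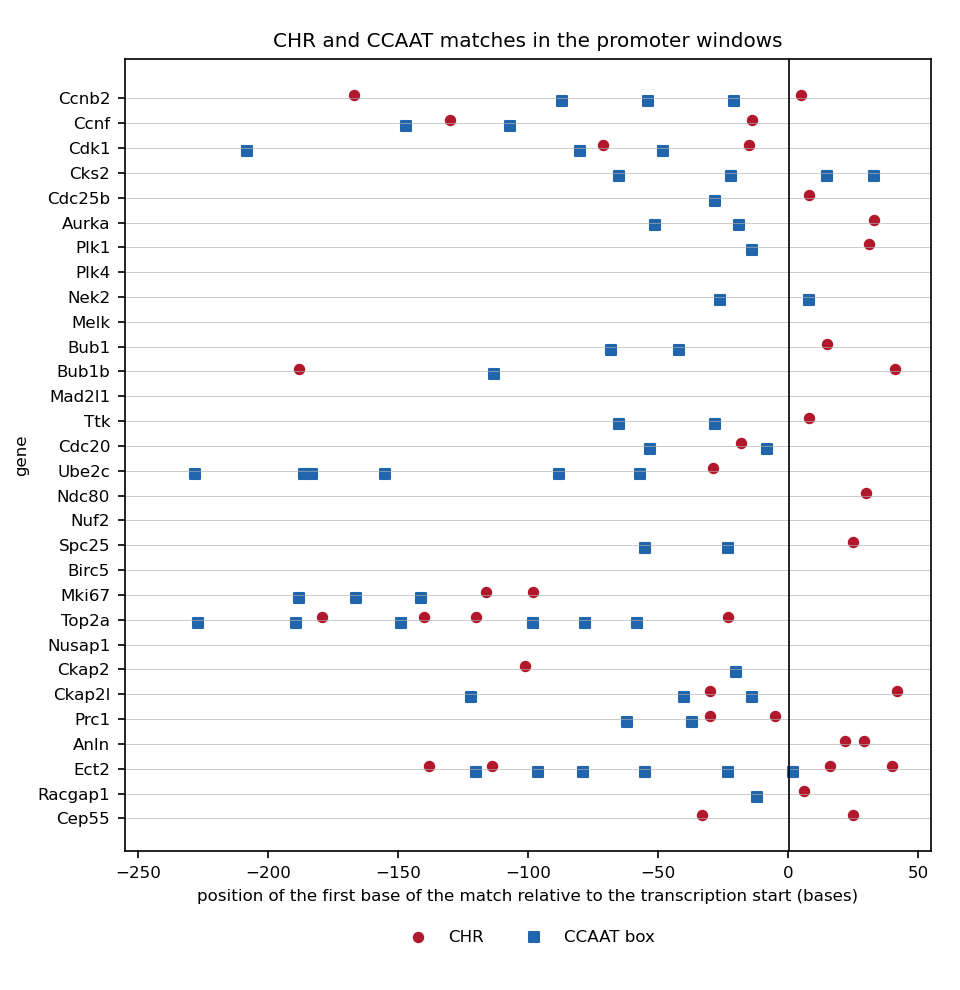
Matches to the CHR (red circles) and the CCAAT box (blue squares) in the promoter windows of the 30 measured genes that have one, by the position of the first base relative to the transcription start (vertical line; all listed starts of a gene share its line). Most CHR matches lie within 50 bases of the start; Plk4, Melk, Mad2l1, Nuf2, Birc5 and Nusap1 show no match to either motif.

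Before any comparison, 1 array stood apart in these genes. Wild type replicate 1 held the highest wild type value for 33 of the 37 genes, whereas over all probe sets it was the highest of its group in 35.2%. It lay above the mean of the other wild type arrays by a median of 0.57 (log2) over the 37 genes and of 0 over all probe sets. The spread within wild type was also wide: the median SD of the 37 genes was 0.37, against 0.16 and 0.11 in the NEMO and labelled double knockouts. Over all probe sets the median SDs were 0.093, 0.11 and 0.092. Among the NEMO knockout arrays replicate 2 was highest for 30 of the 37, and replicate 1 lowest for 25 and given the lowest weight of the 9 arrays by limma (0.412). Wild type replicate 1 was not given a low weight (1.31). The fit shares 1 estimate of spread over the 3 groups, so the wild type spread also enters the comparison of the knockout groups. Counts of calls and of groups without overlap in the NEMO knockout are therefore also given without wild type replicate 1 and without NEMO knockout replicate 1. Both arrays stood out in these same genes, and leaving out either one raised the median difference of the 37 (0.95 to 1.17 and 0.96). These counts therefore cannot show how well the calls hold. Calls fell from 23 to 14 on leaving out any of wild type array 2, wild type array 3 and the NEMO knockout array 2. Class counts are not given for those arrays.

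**Figure D2:**
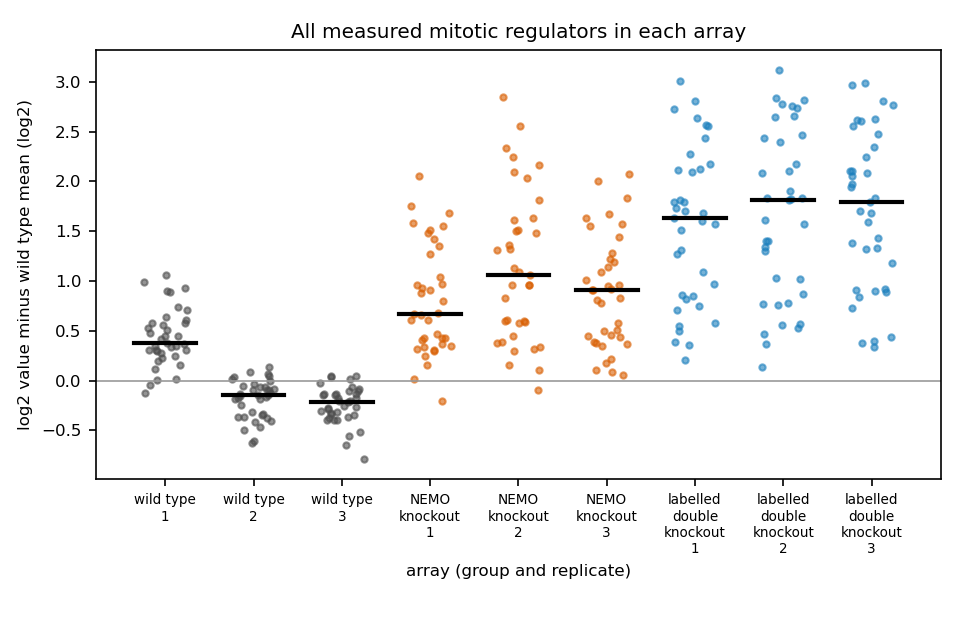
Each point is 1 of the 37 measured genes in 1 array, as its log2 value minus the gene's wild type mean, and black bars are the medians over genes. Wild type replicate 1 has a median of 0.38 against -0.15 and -0.22 in the other wild type arrays, the NEMO knockout arrays lie at 0.67 to 1.06 and the labelled double knockout arrays at 1.63 to 1.81.

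Ikbkg read 8.73, 8.89 and 8.98 in the wild type arrays, 8.23, 8.48 and 8.35 in those of the NEMO knockout and 8.10, 8.26 and 8.45 in those of the labelled double knockout (log2, in the order of the replicates here and below). All 6 knockout arrays lay below the wild type arrays, at -0.52 ± 0.11 in the NEMO knockout and -0.60 ± 0.11 in the other group (difference ± SE; limma adjusted p = 0.0184 and 0.00835, at most 0.0729 and 0.0375 with 1 array left out). The probe set of Cdkn1a, which the annotation shares with 4930567H12Rik, read 8.54, 9.64 and 7.83 in the wild type arrays, 9.76, 10.70 and 9.83 in those of the NEMO knockout and 11.14, 10.14 and 11.06 in those of the labelled double knockout. Against wild type it was at 1.43 ± 0.45 in the NEMO knockout (limma adjusted p = 0.101) and was called higher in the labelled double knockout, at 2.11 ± 0.45 (adjusted p = 0.0194). Between the knockout groups it was at 0.68 ± 0.45 (adjusted p = 0.803). This signal goes against the label. Where its probes lie relative to the deletion is not known here, so directions for that group rest on the label. The array medians lay between 6.47 and 6.58 (log2).

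All 37 genes had group means in the order wild type, NEMO knockout, labelled double knockout, an order held by 13.3% of all probe sets tested (36 of 37 without wild type replicate 1 or without NEMO knockout replicate 1). In 28 of the 37 the 3 groups did not overlap at either step, against 1.04% of all probe sets. Without wild type replicate 1 this was 31 of 37 against 1.21%, and without NEMO knockout replicate 1 it was 30 against 1.38%. In bulk liver, more dividing cells and more RNA per dividing cell cannot be told apart, nor can the cell type that divides. The genes are not independent of each other, and no test was made over the set.

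**Figure D3:**
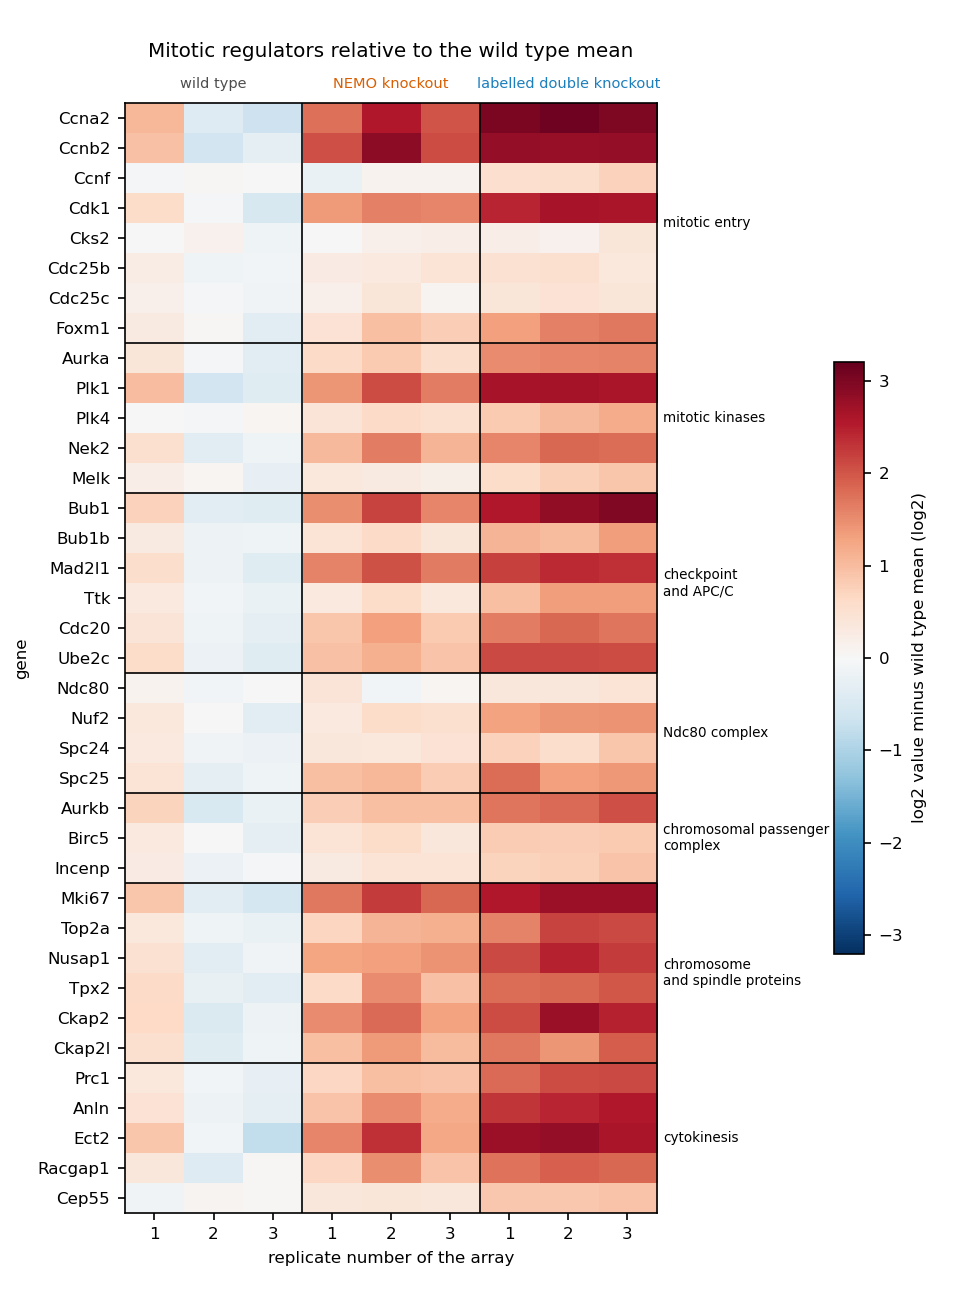
Colour gives each gene's log2 value minus its wild type mean in every array (columns, 3 replicates per group), with genes ordered by functional class. Red deepens from the NEMO knockout to the labelled double knockout in most rows; Ccnf, Cks2, Cdc25b, Cdc25c and Ndc80 stay pale, and wild type replicate 1 is redder than replicates 2 and 3 in most rows.

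Against wild type, 23 of the 37 genes rose in the NEMO knockout and none fell (limma, Benjamini-Hochberg adjusted p under 0.05 over all 28939 probe sets), where 5.66% of all probe sets were called higher, 2.02% lower and 7.68% either way. The median difference of the 37 was 0.95 (log2), against -0.039 for all probe sets, and in 31 of them the NEMO knockout arrays all lay above the wild type arrays (11.4% of all probe sets; 34 against 13.9% without wild type replicate 1 and 34 against 16% without NEMO knockout replicate 1). The count of calls was 32 without wild type replicate 1, 22 without NEMO knockout replicate 1, and 14 without wild type replicate 2, without wild type replicate 3 or without NEMO knockout replicate 2. Calls among all probe sets, in either direction, numbered 2222 with all arrays, 1700 without wild type replicate 1 and 2335 without NEMO knockout replicate 1. In the labelled double knockout 35 of the 37 were above wild type and none below (5.81% of all probe sets called higher, 3.51% lower), by a median of 1.72 over the 37. Cks2 and Ndc80 did not pass. The count was 35 without wild type replicate 1 and 36 without NEMO knockout replicate 1. All 37 had a difference above 0 and an unadjusted p under 0.05 there, as did 40.6% and 10.2% of all probe sets, the latter with the difference above 0.

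Between the knockout groups every one of the 37 differences was above 0, as were 51.4% of all probe sets, with a median of 0.77 (log2) against 0.0033 for all probe sets. In 32 of the 37 the labelled double knockout arrays all lay above the NEMO knockout arrays (4.99% of all probe sets; without NEMO knockout replicate 1, 33 against 17.2%). Only 2 genes, Prc1 and Cep55, passed the adjusted threshold (both adjusted p = 0.0348; 0.0864% of all probe sets called higher), and 31 had an unadjusted p under 0.05 with the labelled double knockout higher (3.47% of all probe sets). Without wild type replicate 1 the count was 9: Cdk1, Aurka, Ube2c, Nuf2, Aurkb, Nusap1, Prc1, Anln and Cep55. Without any 1 of the other 8 arrays it was 0, with 23 to 32 at an unadjusted p under 0.05. With only the knockout groups in the fit it was 5: Cdk1, Aurka, Ube2c, Nuf2 and Prc1.

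The genes of mitotic entry moved unequally. The cyclins A2 and B2 and their kinase had large differences, while the phosphatases and the CDK subunit Cks2 had small ones. Against wild type 4 of the 8 measured rose in the NEMO knockout, where 5.66% of all probe sets were called higher. That count was 5 without wild type replicate 1 and 4 without NEMO knockout replicate 1. In the labelled double knockout 7 of the 8 rose, against 5.81% of all probe sets. Ccnb2, a B-type cyclin that partners CDK1, read 7.95, 6.39 and 6.71 in the wild type arrays, 9.08, 9.87 and 9.09 in those of the NEMO knockout and 9.82, 9.80 and 9.82 in those of the labelled double knockout. It had the largest rise of the set in the NEMO knockout, 2.33 ± 0.36 (5.03-fold, limma adjusted p = 0.00419). The knockout groups overlapped: NEMO knockout replicate 2 lay above all 3 labelled double knockout arrays. Between them the difference was 0.47 ± 0.36 (95% interval -0.34 to 1.27, not adjusted).

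Ccna2, the cyclin active from S phase into early mitosis, read 7.39, 5.91 and 5.68 in the wild type arrays, 8.08, 8.89 and 8.33 in those of the NEMO knockout and 9.33, 9.45 and 9.32 in those of the labelled double knockout. No groups overlapped, and wild type replicate 1 was more than 1 log2 unit above the other wild type arrays. It rose by 2.11 ± 0.39 in the NEMO knockout (adjusted p = 0.0104) and stood 8.22-fold above wild type in the labelled double knockout (adjusted p = 0.00148), the largest such fold of the set. Cdk1, the kinase that drives entry into mitosis, read 7.38, 6.73 and 6.29 in the wild type arrays, 8.15, 8.41 and 8.37 in those of the NEMO knockout and 9.24, 9.45 and 9.41 in those of the labelled double knockout. Its groups did not overlap either. The step between the knockout groups was 1.06 ± 0.22 (adjusted p = 0.156). With 1 array left out the adjusted p ran from 0.0291, without wild type replicate 1, to 0.439.

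Foxm1, the transcription factor that switches on many mitotic genes, rose by 0.73 ± 0.18 in the NEMO knockout (adjusted p = 0.0341) and was 1.53 ± 0.18 above wild type in the labelled double knockout (adjusted p = 0.000836). Cdc25b and Cdc25c, the phosphatases that remove the inhibitory phosphates from CDK1, were at 0.34 ± 0.11 and 0.21 ± 0.096 in the NEMO knockout and did not pass. In the labelled double knockout they rose by 0.45 ± 0.11 and 0.42 ± 0.096 (adjusted p = 0.0274 and 0.0255). The Foxm1 call in the NEMO knockout and the calls of Cdc25b and Cdc25c in the labelled double knockout were each lost without at least 1 array.

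Ccnf, the F-box cyclin that directs the destruction of ribonucleotide reductase and centrosome proteins, read 7.24, 7.33 and 7.30 in the wild type arrays, 7.08, 7.40 and 7.40 in those of the NEMO knockout and 7.84, 7.86 and 8.02 in those of the labelled double knockout. Wild type and NEMO knockout arrays overlapped, with a difference of 0.0016 ± 0.096 (95% interval -0.21 to 0.22, not adjusted; adjusted p = 0.996), whose sign turned when the arrays were centred on their medians. All 3 labelled double knockout arrays lay above the other 6, a rise over wild type of 0.61 ± 0.096 (adjusted p = 0.004), and the difference to the NEMO knockout was 0.61 ± 0.096 (adjusted p = 0.0505). That difference passed in 4 of 18 alternative settings (quantile normalisation, cyclic loess, array weights and the filter on dim probe sets), with adjusted p from 0.0307 to 0.225 over the 18. Ccnf is the only member that lies within 10 Mb of Cdkn1a in the RefSeq gene table. Of the 33 called probe sets with a position in that comparison, 4 (12.1%) lay in that interval, against 2.50% of all probe sets with a position; the part of that position in the result was not tested.

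Cks2, a small subunit of the CDK1 complex, had the smallest difference from wild type of the set in the labelled double knockout, and its values are uncertain. It read 8.69, 8.82 and 8.54 in the wild type arrays, 8.70, 8.83 and 8.90 in those of the NEMO knockout and 8.89, 8.82 and 9.06 in those of the labelled double knockout, and the 3 groups overlapped in this brightest probe set. Its differences were 0.13 ± 0.096 and 0.11 ± 0.096 for the steps from wild type to NEMO knockout and on to the labelled double knockout (95% intervals -0.089 to 0.34 and -0.10 to 0.33, not adjusted). The annotation gives 3 probe sets to Cks2 with the same transcript accessions. The dimmer ones had differences of 0.17 and 0.16 between NEMO knockout and wild type. In both of these, all labelled double knockout arrays lay above wild type, by 0.30 and 0.35, and neither was called (limma adjusted p = 0.150 and 0.129). Near-identical copies of the gene could share this signal.

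**Figure D4:**
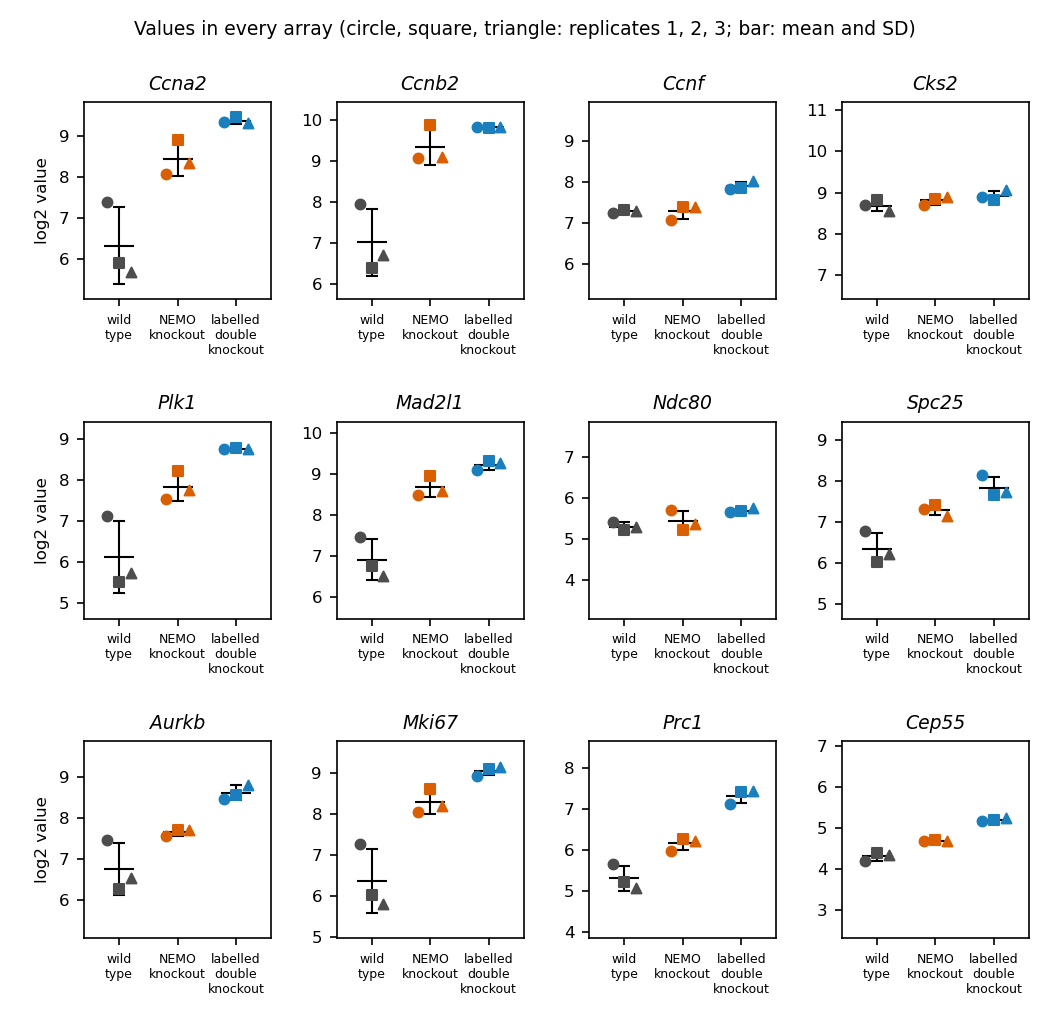
Log2 values of 12 genes in every array, with circles, squares and triangles for replicates 1, 2 and 3 and bars for the mean and SD of each group of 3; every panel spans the same range of log2 units. All 3 labelled double knockout values of Ccnf lie above the other 6, Cks2 stays between 8.54 and 9.06 in all 9 arrays, and Prc1 and Cep55 climb in 2 steps without overlap.

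Of the 5 mitotic kinases, 4 rose in the NEMO knockout, where 5.66% of all probe sets were called higher. Without wild type replicate 1 that count was 4, and without NEMO knockout replicate 1 it was 3. All 5 were above wild type in the labelled double knockout, against 5.81% of all probe sets. Plk1, the Polo-like kinase needed for centrosome maturation, spindle assembly and cytokinesis, read 7.11, 5.51 and 5.74 in the wild type arrays, 7.54, 8.21 and 7.75 in those of the NEMO knockout and 8.76, 8.78 and 8.74 in those of the labelled double knockout. The labelled double knockout arrays lay within 0.05 log2 units of each other, while wild type replicate 1 stood far above replicates 2 and 3. Plk1 rose by 1.71 ± 0.36 in the NEMO knockout (3.28-fold, adjusted p = 0.0181) and was 6.23-fold above wild type in the labelled double knockout (adjusted p = 0.00192). Without wild type replicate 1 the first difference was 2.21.

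Nek2, which separates the centrosomes at mitotic entry, read 7.05, 6.18 and 6.39 in the wild type arrays, 7.57, 8.17 and 7.63 in those of the NEMO knockout and 8.11, 8.37 and 8.33 in those of the labelled double knockout. The knockout groups overlapped at 0.48 ± 0.23, and the rise over wild type was 1.25 ± 0.23 in the NEMO knockout (adjusted p = 0.00907). Aurka, the Aurora kinase of the spindle poles, and Plk4, the kinase that licenses centriole duplication, are the other two kinases called in the NEMO knockout. In the NEMO knockout Aurka rose by 0.67 ± 0.16 and Plk4 by 0.51 ± 0.091 (adjusted p = 0.0305 and 0.00897). Between the knockout groups they were at 0.89 ± 0.16 and 0.51 ± 0.091 and did not pass (adjusted p = 0.0833 and 0.0863). Melk, a kinase of dividing cells, was at 0.27 ± 0.12 in the NEMO knockout and did not pass; it rose by 0.74 ± 0.12 over wild type in the labelled double knockout (adjusted p = 0.00566).

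The next class joins spindle checkpoint genes with genes that activate the APC/C. All 6 of them were free of overlap at both steps, against 1.04% of all probe sets. In the class 4 of the 6 rose in the NEMO knockout, where 5.66% of all probe sets were called higher. Without wild type replicate 1 that count was 6, and without NEMO knockout replicate 1 it was 4. All 6 were above wild type in the labelled double knockout (highest limma adjusted p = 0.0012), against 5.81% of all probe sets. Mad2l1, the checkpoint protein that sequesters CDC20, read 7.47, 6.76 and 6.52 in the wild type arrays, 8.49, 8.95 and 8.59 in those of the NEMO knockout and 9.10, 9.31 and 9.26 in those of the labelled double knockout. It rose by 1.76 ± 0.22 (3.39-fold, adjusted p = 0.00148), the smallest adjusted p of the set in the NEMO knockout. Bub1, the kinase that recruits checkpoint proteins to kinetochores, read 5.44, 4.34 and 4.30 in the wild type arrays, 6.17, 6.86 and 6.25 in those of the NEMO knockout and 7.25, 7.53 and 7.66 in those of the labelled double knockout. The dimmest wild type arrays of Bub1 lay near 4.3 and the labelled double knockout arrays above 7.2, a difference of 2.79 ± 0.30 (adjusted p = 0.000623).

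Cdc20, the APC/C activator that starts anaphase, rose by 1.01 ± 0.19 in the NEMO knockout (adjusted p = 0.00992), and Ube2c, the ubiquitin-conjugating enzyme of the APC/C, by 0.996 ± 0.21 (adjusted p = 0.0177). Ube2c read 8.85, 8.84 and 8.83 in the labelled double knockout, more than 0.9 log2 units above every NEMO knockout array (1.11 ± 0.21, adjusted p = 0.104). With 1 array left out the adjusted p ran from 0.00765, without wild type replicate 1, to 0.354. Bub1b, which encodes the checkpoint inhibitor BUBR1, and Ttk, which encodes the checkpoint kinase MPS1, were at 0.47 ± 0.13 and 0.41 ± 0.15 in the NEMO knockout and did not pass. Both had larger values for the step between the knockout groups, 0.67 ± 0.13 and 0.80 ± 0.15, which did not pass either.

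The 4 subunits of the Ndc80 complex, which ties kinetochores to microtubules, had 1 gene called in the NEMO knockout, against 5.66% of all probe sets called higher. That count was 3 without wild type replicate 1 and 1 without NEMO knockout replicate 1. Spc25 read 6.80, 6.03 and 6.22 in the wild type arrays, 7.32, 7.41 and 7.16 in those of the NEMO knockout and 8.15, 7.65 and 7.73 in those of the labelled double knockout, with no overlap between groups, and was the subunit that rose in the NEMO knockout (0.95 ± 0.19, adjusted p = 0.0173). Nuf2 read 5.54, 5.19 and 4.85 in the wild type arrays, 5.50, 5.79 and 5.70 in those of the NEMO knockout and 6.47, 6.59 and 6.62 in those of the labelled double knockout. Wild type replicate 1 of Nuf2 lay above the lowest NEMO knockout array. All labelled double knockout arrays lay clear of the rest, 0.90 ± 0.15 above the NEMO knockout (adjusted p = 0.076) and 1.37 ± 0.15 above wild type (adjusted p = 0.000758).

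Ndc80 itself read 5.41, 5.20 and 5.28 in the wild type arrays, 5.71, 5.21 and 5.36 in those of the NEMO knockout and 5.66, 5.67 and 5.74 in those of the labelled double knockout. NEMO knockout replicate 1 was as high as the labelled double knockout while replicates 2 and 3 lay in the wild type range. The direction of the NEMO knockout difference (0.13 ± 0.12) turned without that array, to -0.016. Against wild type the labelled double knockout was at 0.39 ± 0.12 (adjusted p = 0.0797, and 0.0153 without NEMO knockout replicate 1). Spc24 was at 0.38 ± 0.13 in the NEMO knockout, which did not pass, and rose by 0.74 ± 0.13 over wild type in the labelled double knockout (adjusted p = 0.00806). These are differences within each probe set, which differ in dynamic range, and no subunit was tested against another.

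In the chromosomal passenger complex, which corrects wrong attachments and later guides cytokinesis, none of the 3 genes passed in the NEMO knockout (limma; all 3 had an unadjusted p under 0.05, against 20.3% of all probe sets in either direction). Without wild type replicate 1 all 3 passed there, and without NEMO knockout replicate 1 none did. All 3 were above wild type in the labelled double knockout, where 5.81% of all probe sets were called higher. Aurkb, its kinase, read 7.47, 6.27 and 6.55 in the wild type arrays, 7.56, 7.72 and 7.72 in those of the NEMO knockout and 8.47, 8.57 and 8.82 in those of the labelled double knockout. The groups did not overlap, but wild type replicate 1 came within 0.1 log2 units of the lowest NEMO knockout array. The difference of 0.91 ± 0.26 (adjusted p = 0.0652) was 1.26 without wild type replicate 1 (adjusted p = 0.00175). The highest adjusted p with 1 array left out was 0.190. Birc5, which encodes survivin, read 6.64, 6.35 and 6.02 in the wild type arrays, 6.77, 6.92 and 6.71 in those of the NEMO knockout and 7.16, 7.11 and 7.18 in those of the labelled double knockout. Birc5 and Incenp, the scaffold of the complex, were 0.81 ± 0.14 and 0.80 ± 0.11 above wild type in the labelled double knockout (adjusted p = 0.00567 and 0.00239). Without wild type replicate 1 their adjusted p in the NEMO knockout was below the threshold (0.0166 and 0.0143). With 1 array left out it was 0.211 and 0.189 at the highest.

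Among proteins of mitotic chromosomes and the spindle, 5 of 6 rose in the NEMO knockout, where 5.66% of all probe sets were called higher. That count was 6 without wild type replicate 1 and 6 without NEMO knockout replicate 1. All 6 were above wild type in the labelled double knockout, against 5.81% of all probe sets. None of the 6 had groups that overlapped at either step, a pattern held by 1.04% of all probe sets. Mki67, which encodes the Ki-67 antigen that coats mitotic chromosomes and is used to count dividing cells, read 7.26, 6.03 and 5.81 in the wild type arrays, 8.04, 8.62 and 8.20 in those of the NEMO knockout and 8.93, 9.10 and 9.14 in those of the labelled double knockout. It rose 3.79-fold in the NEMO knockout (adjusted p = 0.00672) and stood 6.46-fold above wild type in the labelled double knockout (adjusted p = 0.00106). Ckap2, a microtubule-binding spindle protein, read 6.01, 4.91 and 5.20 in the wild type arrays, 6.88, 7.19 and 6.66 in those of the NEMO knockout and 7.47, 8.13 and 7.85 in those of the labelled double knockout. It rose by 1.53 ± 0.27 (adjusted p = 0.00889).

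Nusap1, a spindle protein that bundles microtubules near chromatin, rose by 1.34 ± 0.19 (adjusted p = 0.00262). Ckap2l, a spindle protein related to Ckap2, rose by 1.11 ± 0.23 (adjusted p = 0.0166). Top2a, the topoisomerase that untangles sister chromatids, had almost equal steps of 0.97 ± 0.20 (adjusted p = 0.0161) and 0.99 ± 0.20 (adjusted p = 0.125). A dim additional probe set of Top2a (2.50 to 3.09 over the arrays), set aside as the dimmer of the pair, was at -0.032 ± 0.16 between NEMO knockout and wild type. Tpx2, which activates Aurora A on spindle microtubules, was at 1.02 ± 0.27 in the NEMO knockout (adjusted p = 0.0532). It passed without wild type replicate 1 (0.0113), and its highest adjusted p with 1 array left out was 0.168.

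All 5 cytokinesis genes rose in the NEMO knockout, where 5.66% of all probe sets were called higher. Without wild type replicate 1 that count was 5, and without NEMO knockout replicate 1 it was 4. All 5 were above wild type in the labelled double knockout, against 5.81% of all probe sets. Both genes that passed between the knockout groups, where 0.0864% of all probe sets were called higher, belong to this class. Prc1, which bundles the antiparallel microtubules of the central spindle, read 5.66, 5.23 and 5.07 in the wild type arrays, 5.99, 6.28 and 6.22 in those of the NEMO knockout and 7.13, 7.41 and 7.43 in those of the labelled double knockout. The labelled double knockout arrays lay more than 0.8 log2 units above every NEMO knockout array. Prc1 rose by 1.16 ± 0.15 (2.24-fold, adjusted p = 0.0348), after 0.84 ± 0.15 between NEMO knockout and wild type (adjusted p = 0.00939). Cep55, which recruits the abscission machinery to the midbody, read 4.20, 4.41 and 4.36 in the wild type arrays, 4.69, 4.70 and 4.69 in those of the NEMO knockout and 5.18, 5.19 and 5.24 in those of the labelled double knockout.

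Cep55 was dim, below the median of all probe sets (6.53), and its SDs were 0.11, 0.0079 and 0.035 in the order of the groups. NEMO knockout replicates 1 and 3 held the identical value 4.68803, and the source of that tie was not tested. It rose by 0.37 ± 0.068 in the NEMO knockout (adjusted p = 0.00987) and by a further 0.51 ± 0.068 in the labelled double knockout (1.42-fold, adjusted p = 0.0348). Neither call between the knockout groups outlasted the loss of an array other than wild type replicate 1. Without NEMO knockout replicate 1 the adjusted p was 0.0829 for Prc1 and 0.0819 for Cep55. The highest adjusted p with 1 array left out was 0.161 and 0.163. Their differences with 1 array left out ran from 1.07 to 1.26 and from 0.49 to 0.52.

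Ect2, the exchange factor that activates RhoA at the cleavage furrow, read 7.57, 6.58 and 5.89 in the wild type arrays, 8.23, 9.01 and 7.90 in those of the NEMO knockout and 9.40, 9.50 and 9.29 in those of the labelled double knockout. It had the widest wild type and NEMO knockout spreads among the cytokinesis genes, yet no groups overlapped (1.70 ± 0.39 in the NEMO knockout, adjusted p = 0.0281, and 0.0937 at the highest with 1 array left out). Anln, the anillin scaffold of the contractile ring, read 5.94, 5.31 and 5.21 in the wild type arrays, 6.40, 6.99 and 6.67 in those of the NEMO knockout and 7.77, 7.92 and 8.04 in those of the labelled double knockout. It rose by 1.20 ± 0.20 (adjusted p = 0.00636). Its step between the knockout groups, 1.22 ± 0.20, was the largest of all 37 and did not pass (adjusted p = 0.0612). Racgap1, the partner of Ect2 in the central spindle, rose by 1.02 ± 0.23 in the NEMO knockout (adjusted p = 0.0242).

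The values of both steps are set side by side here. Both steps share the NEMO knockout arrays, so they are not independent. For Ccna2, Ccnb2, Mad2l1 and Mki67 the step from wild type to NEMO knockout (2.11, 2.33, 1.76 and 1.92) was more than 1.0 log2 unit larger than the step between the knockout groups (0.93, 0.47, 0.54 and 0.77). For 14 of the 37 the step between the knockout groups was the larger, among them Ccnf, Nuf2, Ttk and Prc1. The difference between the steps was not tested.

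**Figure D5:**
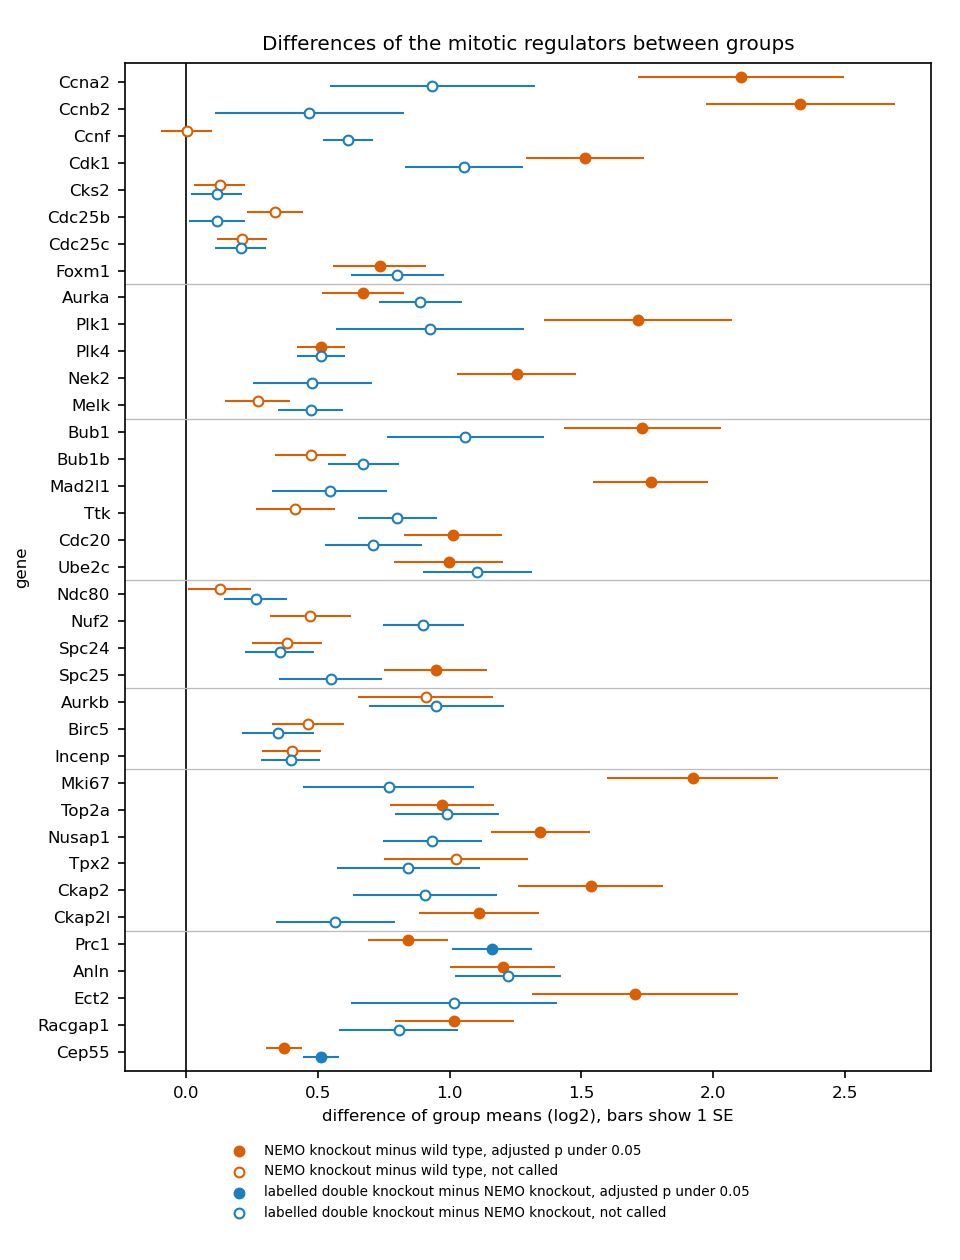
Difference of group means on the log2 scale with bars of 1 SE for each of the 37 genes (3 arrays per group), orange for NEMO knockout minus wild type and blue for labelled double knockout minus NEMO knockout; filled points passed an adjusted p under 0.05. All blue points lie to the right of 0 and only those of Prc1 and Cep55 are filled, while 23 orange points are filled.

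Other genes of the same pathway, a list of 59 that were all measured, were read in the same way. In the NEMO knockout 19 rose (21 without wild type replicate 1, and 8 on leaving out either the wild type array 3 or the NEMO knockout array 2) and 1 fell, with a median of 0.23 (log2), and in the labelled double knockout 29 were above wild type and none below. Over all probe sets 5.66% were called higher and 2.02% lower in the NEMO knockout, and 5.81% and 3.51% in the labelled double knockout. The largest rises in the NEMO knockout were those of Stmn1, a microtubule destabiliser (1.61 ± 0.18, adjusted p = 0.00101), Sgo2a, a shugoshin that protects centromeric cohesin (1.43 ± 0.26, adjusted p = 0.00946), and Cdca3, a trigger of mitotic entry (1.40 ± 0.23, adjusted p = 0.00643). Mis12, a kinetochore scaffold, fell by 0.43 on the log2 scale (SE 0.10, adjusted p = 0.0311, and 0.0912 at the highest with 1 array left out). Between the knockout groups 1 gene passed, where 0.0864% of all probe sets were called higher. It was Gtse1, a microtubule-binding regulator of p53 in G2, at 0.66 ± 0.090 (adjusted p = 0.0348, 0.0527 without wild type replicate 1 and 0.167 at the highest with 1 array left out). Gtse1 read 6.49, 6.41 and 6.56 in the wild type arrays, 6.92, 7.04 and 6.92 in those of the NEMO knockout and 7.43, 7.76 and 7.65 in those of the labelled double knockout, with no overlap at either step.

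Core subunits of the APC/C, on which Cdc20 and Ube2c act, had small median differences. Of its 11 subunits in that list, grouped after their values were seen, 1 rose in the NEMO knockout, Anapc2 (0.35 ± 0.085, adjusted p = 0.0388, and 0.119 without wild type replicate 1), a share near the 7.68% of all probe sets called. In the labelled double knockout none passed against wild type (limma; 2 with an unadjusted p under 0.05, against 21% of all probe sets). Their median differences were 0.094 for the step to the NEMO knockout and -0.051 for the step between the knockout groups.

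Markers of other liver cells were higher in the NEMO knockout than in wild type for several lists. None was called between the knockout groups, where only 0.197% of all probe sets were called in either direction. Called higher in the NEMO knockout were 6 of 6 infiltrating macrophage markers, 6 of 8 Kupffer cell, 6 of 8 stellate cell, 3 of 7 T and NK cell, 2 of 5 neutrophil and 2 of 5 cholangiocyte markers. Over all probe sets 5.66% were called higher there and 2.02% lower. No B cell (3) or endothelial (6) marker was called (limma; none at an unadjusted p under 0.05), and 1 of 4 erythroid markers fell. The mean log2 level of the infiltrating macrophage markers was 6.76 to 6.96 over the wild type arrays, 8.39 to 8.60 over those of the NEMO knockout and 8.41 to 8.61 over those of the labelled double knockout. For stellate cell markers the ranges were 8.45 to 8.48, 9.36 to 9.56 and 9.36 to 9.52, and for T and NK cell markers 5.89 to 5.97, 6.20 to 6.63 and 5.92 to 6.14.

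Between the knockout groups, where all 37 mitotic genes had differences above 0, the median marker differences were -0.061 for infiltrating macrophages, -0.031 for Kupffer cells, -0.026 for stellate cells, -0.060 for cholangiocytes, -0.37 for T and NK cells, -0.22 for neutrophils, -0.21 for B cells, 0.022 for endothelial cells and 0.043 for erythroid cells. At an unadjusted p under 0.05 in either direction there were 4 of 7 T and NK cell, 2 of 6 infiltrating macrophage, 2 of 5 neutrophil, 1 of 8 Kupffer cell and 1 of 6 endothelial markers, and none of the other lists. Over all probe sets the share at that cut was 7.46%, and the Kupffer cell and endothelial counts lie near it.

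The hepatocyte markers, such as albumin and transthyretin, were bright in every array, with a mean level of 13.2 to 13.3, and none of the 8 was called in any comparison (limma; 1 had an unadjusted p under 0.05, in the labelled double knockout against wild type). In wild type replicates 1, 2 and 3 the mean level was 6.78, 6.96 and 6.76 for infiltrating macrophage, 8.47, 8.48 and 8.45 for stellate cell, 5.97, 5.89 and 5.93 for T and NK cell and 6.46, 6.33 and 6.28 for cholangiocyte markers. No marker was at 0 in any array, and the lowest value, of an erythroid marker, was 3.47. The part of any other cell type in the mitotic gene differences was not tested.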

How the data were processed

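The deposited table holds log2 expression values from 9 arrays, made by the authors with RMA per the submitters' processing notes. Its version, a genome build and filters are not given in the sources used, and the log base was taken from the range of the values. RMA usually equalises the distributions of the arrays, which hides a shift shared by most RNAs, and the number of arrays limits the precision. Of 35556 probe sets, 6617 with identifiers below the first annotated one were left out as presumed controls, and 28939 were tested. The platform annotation gave 1 symbol to 21789, several to 1621 and none to 5529; genes were named from single symbols only, Cdkn1a excepted.

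The main test was limma 3.58.1 (R 4.3.3; lmFit, then eBayes with no trend), with the 9 arrays in 1 fit and a mean for each group, given as difference ± standard error (SE), 3 arrays per group, with Benjamini-Hochberg adjustment over all probe sets and a threshold of 0.05. Members, gene lists and tests were chosen with earlier results of these data known. Values in every array are given for the 2 largest differences between NEMO knockout and wild type in each class, for genes called between the knockout groups or in neither comparison with wild type, and for Cdk1 and Ccnf, chosen after their values were seen. Other pathway genes are named when called between the knockout groups or among the 3 largest called changes each way in the NEMO knockout. Replicate numbers were not used as a block. The 65 markers in 10 lists had 60 measured.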

Additional observations from a re-analysis of the deposited data

How the results depend on the processing

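Each member and each count of members was refitted with an intensity trend, median centring, quantile normalisation, cyclic loess, array weights, only the compared groups, a replicate block, a filter on dim probe sets, the mean of a gene's probe sets, and each array left out. With 1 array left out, members called higher numbered 14 to 32 for the NEMO knockout against wild type, 0 to 9 between the knockout groups and 33 to 36 for the labelled double knockout against wild type. The other settings kept both counts against wild type within 1.5 times. Between the knockout groups the count of 2 became 4 with quantile normalisation, 5 with only the compared groups, 1 with the filter on dim probe sets (27 members left; the gene is Ccnf) and 0 with the replicate block (limma; 31 at an unadjusted p under 0.05; adjusted p = 0.0878 for Prc1 and 0.0781 for Cep55); the block gave 21 and 35 in the comparisons with wild type. Deviations of same-numbered arrays correlated at r = -0.12 to 0.39 across probe sets; between the knockout groups r was 0.083 to 0.39, and 0.22 to 0.36 across the members alone. Not every pair was over 0.1 across probe sets, so the numbers were not taken to pair the arrays. The cause was not tested, except that the filter removes Prc1, Cep55 and other dim members and the fit of the compared groups leaves out the wild type spread. The Ccnf difference between NEMO knockout and wild type turned to -0.061 with median centring, -0.075 with quantile normalisation, -0.022 without wild type replicate 1 and -0.051 without NEMO knockout replicate 2 or 3 (up to 0.11 with another array left out), and that of Ndc80 to -0.016 without NEMO knockout replicate 1 (up to 0.23). No other member changed direction in any of the 3 comparisons. In the NEMO knockout 9 calls were lost without at least 1 array, those of Foxm1, Aurka, Plk1, Ube2c, Spc25, Top2a, Ckap2l, Ect2 and Racgap1. In the labelled double knockout against wild type the calls of Cdc25b and Cdc25c were lost in that way. Median centring moved the split of all calls in the NEMO knockout from 1638 higher and 584 lower to 1304 and 1169, between the knockout groups from 25 and 32 to 17 and 14, and in the labelled double knockout against wild type from 1680 and 1016 to 1309 and 1661. It moved the members' median in the NEMO knockout from 0.95 to 0.88. The other pathway genes, the classes, the markers and Ikbkg were run under the same settings, bar the mean of a gene's probe sets, after the data were seen. Pathway genes called higher numbered 8 to 21 in the NEMO knockout, 0 to 3 between the knockout groups and 26 to 30 in the labelled double knockout against wild type with 1 array left out. Between the knockout groups the count of 1 became 2 with the trend, array weights or the filter, 3 with quantile normalisation and 0 with median centring or the replicate block. The filter left 14 in the labelled double knockout against wild type. No marker was called between the knockout groups in any of these settings. The counts of groups without overlap when an array is left out were added after the data were seen. Of the 37 members, 10 lay below the median of all probe sets, where signal over background limits the differences that can be seen.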
